A study of Homo sapiens with 8 samples.

Results

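MANF, SDF2L1, SEL1L and DERL2 are 4 genes of protein quality control in the endoplasmic reticulum (ER), and their expression was followed in THP-1 cells given 1 of 2 compounds that inhibit PAKs, the p21-activated kinases. They were taken by gene symbol from the 14884 named genes of the array table, and each was measured by 1 probe. The probes were 16941167 for MANF, 16927633 for SDF2L1, 16795394 for SEL1L and 16840308 for DERL2. THP-1 cells are a cultured human leukaemia line of monocytic origin, and the same line was used in all groups. The groups were IPA-3 at 6 µg/mL (2 arrays), FRAX-597 at 2 µg/mL (2 arrays) and the solvent DMSO at matched volume (4 arrays), each for 5 h. IPA-3 is an allosteric PAK inhibitor and FRAX-597 an ATP-competitive one, and each was used at a single dose. Nothing in the labels ties replicate arrays to separate cultures, and the p-values therefore cover the spread between arrays, part or all of which may be technical.

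Proteins that enter the ER are folded by chaperones, and those that fail to fold are returned to the cytosol and destroyed, a route called ER-associated degradation. When unfolded proteins accumulate, the sensors IRE1, ATF6 and PERK start the unfolded protein response (UPR). ATF6 and the XBP1 factor made through IRE1 raise transcription of chaperone and degradation genes, while PERK acts through ATF4. MANF is a small ER-resident protein that can be secreted and protects cells under ER stress. SDF2L1 is a partner of the ER chaperone BiP and its DNAJB11 cochaperone. SEL1L is the adaptor that holds the ubiquitin ligase SYVN1 in the degradation complex of the ER membrane. DERL2, a derlin, is a membrane protein of the same route. All 4 are known as genes that ER stress induces.

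The promoter windows of MANF and SDF2L1 are shown because MANF had the lowest log2 change with IPA-3 among the 4 genes and SDF2L1 the lowest difference between the solvent arrays. Each window runs from 250 bases before to 50 bases after the gene start in RefSeq (GRCh38.p14) and is written 5′ to 3′ in the direction of the gene. Capitals mark CCAAT boxes and CCACG half-sites on either strand (ATTGG and CGTGG where they lie on the opposite strand). The MANF window is chr3:51385041-51385340 on the plus strand, and the SDF2L1 window is chr22:21642052-21642351 on the plus strand.
MANF: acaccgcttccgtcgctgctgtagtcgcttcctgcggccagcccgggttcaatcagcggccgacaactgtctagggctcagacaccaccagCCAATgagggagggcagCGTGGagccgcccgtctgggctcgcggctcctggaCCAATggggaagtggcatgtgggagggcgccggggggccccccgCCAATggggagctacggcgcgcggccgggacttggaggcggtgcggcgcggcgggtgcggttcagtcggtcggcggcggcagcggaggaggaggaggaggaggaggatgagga
SDF2L1: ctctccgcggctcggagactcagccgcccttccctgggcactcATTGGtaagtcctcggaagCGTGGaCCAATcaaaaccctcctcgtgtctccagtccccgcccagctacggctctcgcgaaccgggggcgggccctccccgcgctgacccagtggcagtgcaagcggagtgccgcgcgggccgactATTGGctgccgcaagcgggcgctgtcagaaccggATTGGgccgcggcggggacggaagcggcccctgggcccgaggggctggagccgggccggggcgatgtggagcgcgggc
These letters are the parts of the ER stress response elements, to which ATF6 and XBP1 bind together with the CCAAT factor NF-Y. The element ERSE was searched as CCAAT, any 9 bases and CCACG, ERSE-II as ATTGG, any 1 base and CCACG, and the unfolded protein response element UPRE as TGACGTGG, on both strands. ERSE and ERSE-II each contain a CCAAT box and a CCACG half-site, and UPRE contains CCACG on its opposite strand. SDF2L1 held 1 ERSE-II on the opposite strand at positions -188 to -178 from the start, seen above as CGTGGaCCAAT, which 0.0541% of the 35116 promoter windows of the same length hold. MANF held 0 ERSE-II, with 3 CCAAT boxes and 1 CCACG half-site at other spacings. SEL1L had 5 CCAAT boxes and 1 half-site, and DERL2 had 2 CCAAT boxes and 0 half-sites, and neither window held ERSE-II. No window of the 4 genes held ERSE, found in 0.0769% of windows, or UPRE, found in 0.729%. CCAAT boxes are common, at 34.6% of windows, as are CCACG half-sites, at 38.1%. A match describes these letters in these windows only.

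The 8 arrays lay on 2 scales. DMSO 1, DMSO 2 and the IPA-3 arrays, called the first set, had medians over all 53617 probes from 5.51 to 5.55, and DMSO 3, DMSO 4 and the FRAX-597 arrays, the second set, from 6.00 to 6.05. Each compound was therefore read against the 2 solvent arrays of its own set, in 1 limma fit of these 4 groups with Benjamini-Hochberg adjustment over all 14884 genes and a threshold of 0.05. Of 14 myeloid markers 9 were measured, all above the median of all probes on every array. Their mean log2 values ran from 6.16 to 11.98, the highest being TYROBP. The measured T cell markers, CD2 and TRAT1, had means of 5.63 and 3.3 and the fibroblast marker DCN 3.22. The B cell marker PAX5 had 6.78, and the 4 epithelial markers spanned 4.81 to 9.31, the highest being KRT18. PAX5 and 3 of the 4 epithelial markers also lay above the median of all probes on every array, so that level does not set the myeloid markers apart. Erythroid markers were not analysed here. The 4 genes lay above the median of all probes on every array, by 0.94 to 4.28 on the log2 scale. A filter at that median kept 10170 of the 14884 genes. On FRAX-597 1, SDF2L1 (6.94) lay close to the median of the named genes (6.93).

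IPA-3 was examined first, for its effect on the 4 genes after 5 h. All 4 lay lower on both IPA-3 arrays than on both DMSO arrays of their set, with no overlap, but 0 of the 4 passed limma's test over all genes. The medians were -0.3 over the 4 genes and -0.02 over all genes (log2 change). Of all genes, 28.3% were likewise lower without overlap, and 55.6% had a log2 change below 0. Calls were rare in this comparison, at 0.0336% of genes (5 of 14884). Of the 4 genes, MANF and SDF2L1 had an unadjusted p under 0.05 in limma, against 7.21% of all genes, 4.11% with a lower level. Which genes lay under 0.05 depended on the fit. With the first set fitted alone DERL2 had an unadjusted p = 0.0192 in limma, where 2244 of 14884 genes lay under 0.05. After quantile normalization SDF2L1 had an unadjusted p = 0.0504 in limma.

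MANF had log2 levels of 7.47 and 7.37 on the IPA-3 arrays, against 7.95 and 8.01 on DMSO 1 and 2. The gap between the groups exceeded the gap within either of them. The means were 7.42 ± 0.07 with IPA-3 and 7.98 ± 0.04 in DMSO (SD, n = 2 each), which is 32.4% lower on the linear scale. The log2 change of -0.56 (SE 0.10, 95% confidence interval -0.80 to -0.33) did not pass (limma adjusted p = 0.257). It ranked as the 116th lowest log2 change of 14884 genes. The log2 change lay between -0.62 and -0.50 in all 17 alternative settings, with adjusted p from 0.0635 to 1.

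SDF2L1 had log2 levels of 8.33 and 8.29 with IPA-3, against 8.63 and 8.59 on DMSO 1 and 2. Replicates differed by 0.04 in either group. The log2 change was -0.30 (SE 0.11, 95% confidence interval -0.55 to -0.05; limma adjusted p = 0.625). The direction was the same in 16 of 17 alternative settings. Against all 4 DMSO arrays pooled the log2 change was 0.41 (limma adjusted p = 0.614). That pooled mean takes in the lower levels of DMSO 3 and 4 (7.14 and 7.26) from the other set, and the median of all genes was then -0.257.

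Of the 2 membrane components of the degradation route, SEL1L had a smaller difference and DERL2 one like that of SDF2L1. SEL1L had log2 levels of 9.69 and 9.67 with IPA-3, against 9.77 and 9.79 on DMSO 1 and 2. Its log2 change was -0.10 (SE 0.10, 95% confidence interval -0.34 to 0.14; limma adjusted p = 0.889), and 0.13 with the DMSO arrays pooled. DERL2 had log2 levels of 8.36 and 8.24 with IPA-3, against 8.56 and 8.66 on DMSO 1 and 2. Its log2 change of -0.31 was like that of SDF2L1, but with a wider error (SE 0.15, 95% confidence interval -0.67 to 0.05; limma adjusted p = 0.735). That error shares 1 spread over the 4 groups. The first DERL2 array less the second was 0.11 with IPA-3 and -0.10 in DMSO 1 and 2. In the second set it was -0.28 with FRAX-597 and -0.34 in DMSO. With the first set fitted alone the SE was 0.10 (limma adjusted p = 0.253).

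**Figure D1:**
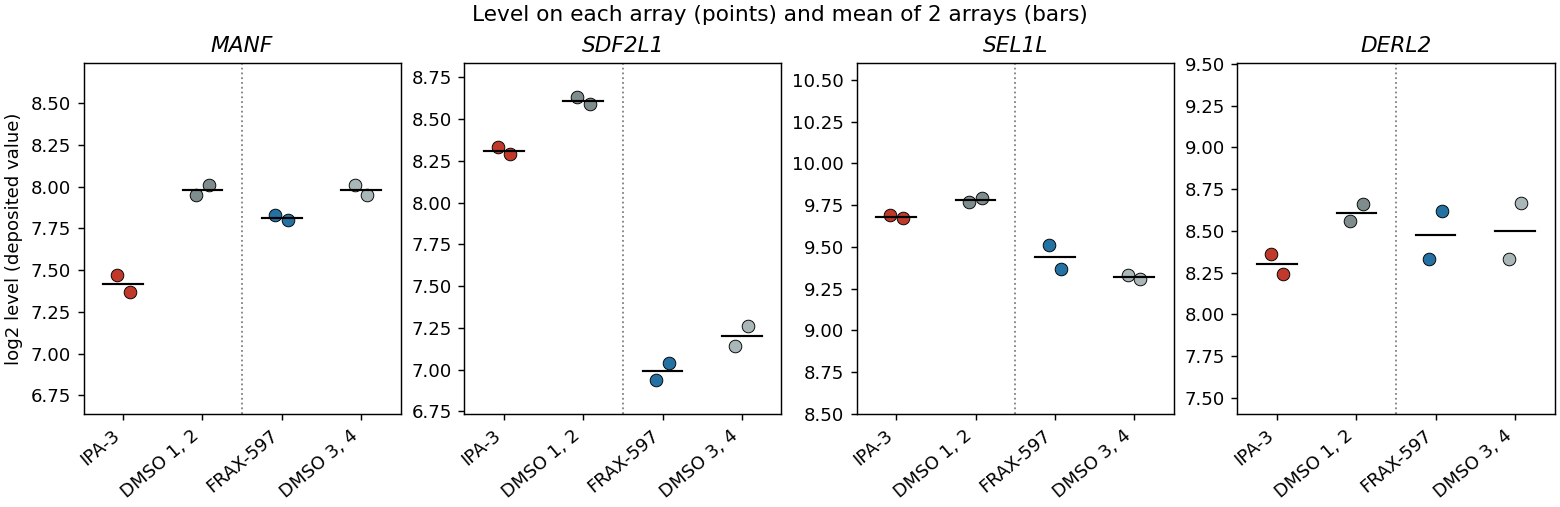
Log2 level (deposited value) of each gene on the 8 arrays, as points, with the mean of 2 arrays as a bar; each panel spans the same range, and the dotted line separates the 2 array sets. In deposited values MANF was lowest with IPA-3 (7.47 and 7.37), but the 2 sets lie on different scales. Less the array median, MANF stood at 1.94 and 1.82 with IPA-3 and at 1.83 and 1.76 with FRAX-597. SDF2L1 was lower on all 4 arrays of the second set than on any array of the first.

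The second comparison asked the same of FRAX-597. Of the 4 genes, 0 passed the test, and their log2 changes ran from -0.21 to 0.12, with a median of -0.09 against -0.02 over all genes. The genes did not move to one side: MANF and SDF2L1 were lower without overlap, SEL1L was higher without overlap and DERL2 overlapped. Of the 4, 3 had a log2 change below 0, against 54.7% of all genes. Of all genes 17.8% were lower and 13% higher without overlap. Calls made up 0.155% of genes here (23 of 14884), and 0 of the 4 genes had an unadjusted p under 0.05, against 7.66% of all genes.

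MANF had log2 levels of 7.83 and 7.80 with FRAX-597, against 8.01 and 7.95 on DMSO 3 and 4. The difference was larger than the gap within either pair of arrays, yet its log2 change of -0.16 (SE 0.10, 95% confidence interval -0.40 to 0.08) did not pass (limma adjusted p = 0.837). SDF2L1 had log2 levels of 6.94 and 7.04 with FRAX-597, against 7.14 and 7.26 on DMSO 3 and 4. Its log2 change was -0.21 (SE 0.11, 95% confidence interval -0.45 to 0.04; limma adjusted p = 0.758). With the 4 DMSO arrays pooled the value was -0.91 (adjusted p = 0.604), a mean that takes in the higher levels of DMSO 1 and 2.

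SEL1L had log2 levels of 9.51 and 9.37 with FRAX-597, against 9.33 and 9.31 on DMSO 3 and 4. Only FRAX-597 1 stood clearly above the solvent arrays. The log2 change was 0.12 (SE 0.10, 95% confidence interval -0.13 to 0.36; limma adjusted p = 0.913), 0.05 without FRAX-597 1, and -0.11 with the DMSO arrays pooled. DERL2 had log2 levels of 8.33 and 8.62 with FRAX-597, against 8.33 and 8.67 on DMSO 3 and 4. Its 2 arrays of a group differed by 0.28 with FRAX-597 and by 0.34 in DMSO, both far more than the log2 change of -0.03 (SE 0.15, 95% confidence interval -0.39 to 0.34; limma adjusted p = 0.998). The value was 0.14 without DMSO 4 and 0.12 without FRAX-597 1.

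Whether the compounds differed was tested as the FRAX-597 change minus the IPA-3 change. The 2 compounds were used at different doses, 2 and 6 µg/mL, so the difference belongs to these doses. All 4 differences were above 0, with 0 of the 4 passing, where 0.0134% of all genes (2 of 14884) passed and 48.4% lay below 0. MANF had a difference of 0.40 on the log2 scale (SE 0.14, 95% confidence interval 0.07 to 0.74; limma adjusted p = 0.772), the only one of the 4 at an unadjusted p under 0.05, as were 6.11% of all genes. SDF2L1 had a difference of 0.09 (95% confidence interval -0.26 to 0.44), SEL1L of 0.22 (-0.12 to 0.56) and DERL2 of 0.28 (-0.23 to 0.79), with limma adjusted p from 0.916 to 0.974. These intervals include both 0 and differences larger than any change seen with FRAX-597, so like responses are not shown.

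**Figure D2:**
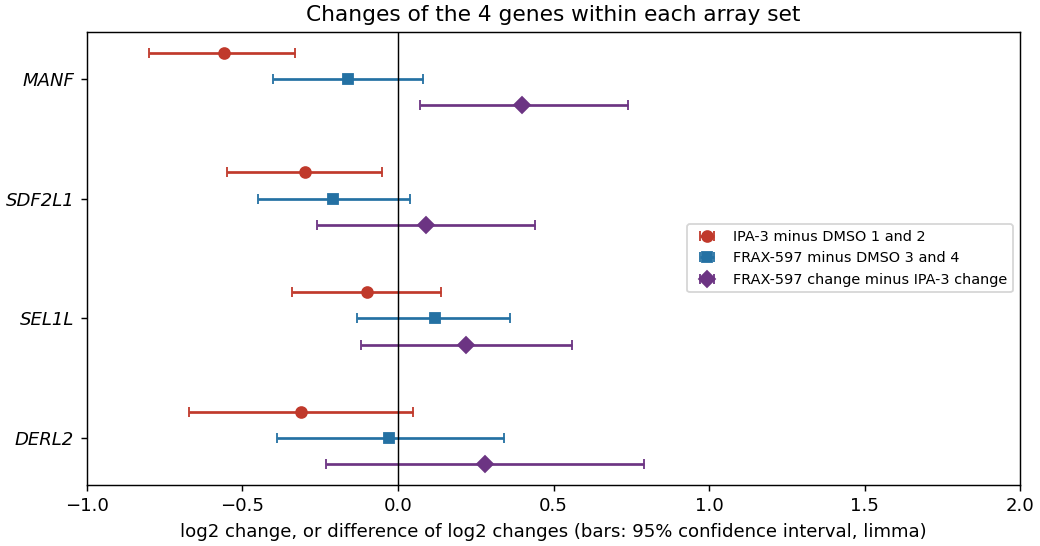
Log2 change of each gene with IPA-3 (circles) and FRAX-597 (squares) against the DMSO arrays of the same set, and the difference of the 2 changes (diamonds); bars are 95% confidence intervals from limma, not adjusted for the number of genes. MANF with IPA-3, at -0.56, lies farthest from 0.

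The largest difference of the 4 genes lay between the solvent arrays themselves. SDF2L1 had 7.14 and 7.26 on DMSO 3 and 4, against 8.63 and 8.59 on DMSO 1 and 2. The means of 7.20 ± 0.08 in DMSO 3 and 4 and 8.61 ± 0.03 in DMSO 1 and 2 (SD, n = 2 each) correspond to a level 2.66-fold lower in DMSO 3 and 4. The log2 difference of -1.41 (SE 0.11) passed (limma adjusted p = 0.000339), whereas all genes together had a median of 0.48, so that relative to all genes it was -1.89. SDF2L1 was the 45th lowest of 14884 genes in this comparison. Without any 1 array the log2 difference was between -1.47 and -1.36, with adjusted p from 0.000445 to 0.00658.

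SEL1L was also lower, at 9.32 ± 0.01 in DMSO 3 and 4 against 9.78 ± 0.02 in DMSO 1 and 2 (SD, n = 2 each; log2 difference -0.46, SE 0.10; limma adjusted p = 0.0072). MANF had 7.98 ± 0.04 in both pairs (log2 difference 0.00; limma adjusted p = 0.991). DERL2 had 8.50 ± 0.24 in DMSO 3 and 4 and 8.61 ± 0.07 in DMSO 1 and 2 (log2 difference -0.11; limma adjusted p = 0.558). Thus 2 of the 4 genes fell and 0 rose in DMSO 3 and 4, where 4.98% of all genes were called lower and 54.9% higher (8918 called, 59.9%). That split rests on the scale of the sets: 2241 genes were called higher and 1970 lower after quantile normalization, and 1725 higher and 2789 lower after median centring. A log2 difference below 0 was seen in 16.3% of all genes. Relative to the median of all genes the differences were -0.48 for MANF, -0.94 for SEL1L and -0.59 for DERL2. Quantile normalization, which brought the median of all genes to 0.05, gave -1.78 for SDF2L1, -0.70 for SEL1L, -0.38 for MANF and -0.44 for DERL2. MANF then passed (adjusted p = 0.0276), and DERL2 did not (adjusted p = 0.066). Culture, processing and normalization of the 2 sets are not labelled and cannot be told apart here.

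**Figure D3:**
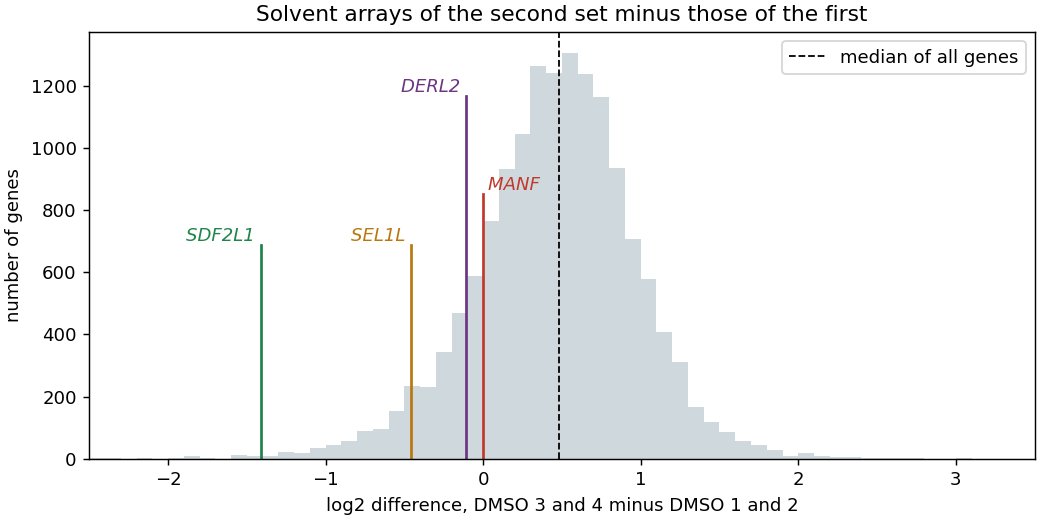
Number of genes by log2 difference between DMSO 3 and 4 and DMSO 1 and 2 (14884 genes, the middle of the range shown), with the 4 genes as coloured lines and the median of all genes, 0.48, dashed. All 4 genes lie left of the dashed line, SDF2L1 at -1.41.

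The order of deposited levels over the 4 groups therefore differed between the genes, with levels of the 2 sets on different scales. MANF was lowest with IPA-3 (mean log2 7.42), followed by FRAX-597 (7.82) and both DMSO pairs (7.98). SDF2L1 ran from FRAX-597 (6.99) through DMSO 3 and 4 (7.20) and IPA-3 (8.31) to DMSO 1 and 2 (8.61). SEL1L ran from DMSO 3 and 4 (9.32) through FRAX-597 (9.44) and IPA-3 (9.68) to DMSO 1 and 2 (9.78). DERL2 ran from IPA-3 (8.30) through FRAX-597 (8.48) and DMSO 3 and 4 (8.50) to DMSO 1 and 2 (8.61), and each group overlapped its neighbour in this order. Of the neighbours in these orders that lay in the same set, none differed past the limma threshold. Less the array median, SDF2L1 and SEL1L kept their order, but MANF and DERL2 did not. MANF then had 1.94 and 1.82 with IPA-3, against 1.83 and 1.76 with FRAX-597. DERL2 had 2.83 and 2.69 with IPA-3, 2.33 and 2.57 with FRAX-597 and 2.30 and 2.62 on DMSO 3 and 4.

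Relatives and partners of the 4 genes were then read in the same fit. The closest relative of SDF2L1, SDF2, had log2 levels of 7.93 and 7.44 with IPA-3, against 8.12 and 8.28 on DMSO 1 and 2. Its log2 change was -0.52 (SE 0.18; limma adjusted p = 0.625), with IPA-3 2 the lower array, and 0.04 with FRAX-597. CDNF, the paralog of MANF, had log2 changes of 0.02 with IPA-3 and 0.16 with FRAX-597, and differed between the solvent pairs in the other direction from SDF2L1 (1.29 in DMSO 3 and 4 minus DMSO 1 and 2; limma adjusted p = 0.00138). Of the derlins, DERL1 had log2 changes of -0.08 with IPA-3 and -0.13 with FRAX-597, and DERL3 of -0.08 and -0.01 in the same order. SEL1L2, a paralog of SEL1L, had 0.09 and 0.03, and ERLEC1, a lectin that passes misfolded glycoproteins to SEL1L, 0.01 and -0.03. CRELD2, another ER stress gene, had -0.15 with IPA-3 and 0.01 with FRAX-597, and the ER chaperone HYOU1 had -0.20 and 0.01. Both fell between the solvent pairs as SDF2L1 did, CRELD2 by 0.69 (limma adjusted p = 0.00231) and HYOU1 by 0.53 (limma adjusted p = 0.00844). Other ER genes were called in both directions. Of 15 measured chaperones and folding enzymes, 5 were called higher and 3 lower in DMSO 3 and 4. Of 19 degradation genes, with DERL1 and DERL3 among those called, 12 were higher and 1 lower. Of all genes 54.9% were called higher and 4.98% lower. The median log2 difference was 0.15 for the chaperones and 0.47 for the degradation genes, against 0.48 over all genes. After quantile normalization the counts were 1 and 4 for chaperones and 6 and 2 for degradation. HSPA5, DNAJB9, DNAJB11, SYVN1, HERPUD1, OS9 and UBE2J1 are not analysed here.

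The rest of the pathway was read in 5 lists with 110 genes, of which 67 were measured. With IPA-3, 0 genes of any list passed. ER chaperones and folding enzymes had 10 of 15 genes below 0 (median log2 change -0.08), with SDF2 and the disulfide isomerase relative ERP29 (-0.38) lowest. ER-associated degradation had 9 of 19 below 0 (median 0.00), from the ubiquitin-conjugating enzyme UBE2G2 at -0.23 to UBXN8, a membrane anchor of VCP, at 0.34. ER translocation and N-glycosylation had 12 of 15 below 0 (median -0.05), and the sensors and transcription factors 6 of 10 (median -0.06). The PERK and ATF4 arm lay on the other side, with 6 of 8 above 0 and a median of 0.31, led by ASNS, asparagine synthetase (0.82, SE 0.29; limma adjusted p = 0.625, and from 0.0307 to 0.714 over 4 other fits, the lowest with the first set fitted alone).

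With FRAX-597, too, 0 genes of the lists passed in this fit. Over 4 other fits the adjusted p ranged from 0.00527 to 1 for TRIB3 and from 0.0314 to 1 for XBP1. The lowest came from a fit that paired the arrays of the second set by number, which the labels do not state, and there ATF4, DDIT3, ASNS and SESN2 passed as well. The PERK and ATF4 arm had 7 of 8 genes above 0 with a median log2 change of 1.02, against -0.02 over all genes. TRIB3, a pseudokinase induced by ATF4, had a log2 change of 2.05 (SE 0.30; limma adjusted p = 0.0695), SESN2, a stress-induced inhibitor of mTORC1 signalling, of 1.67 (SE 0.45) and DDIT3 (CHOP) of 1.55 (SE 0.61). Among the sensors and factors, 9 of 10 were above 0 (median 0.08). XBP1 had log2 levels of 10.59 and 9.67 with FRAX-597, against 9.15 and 8.95 on DMSO 3 and 4 (log2 change 1.08, SE 0.27; limma adjusted p = 0.297). The array does not tell its spliced from its unspliced form here. Among the lists that hold XBP1 and ATF6 targets, chaperones had 10 of 15 genes below 0 (median -0.04), degradation 12 of 19 (median -0.06) and translocation 11 of 15 (median -0.07). Of all genes 54.7% lay below 0. These lists were measured only in part, with 15 of 30, 19 of 32 and 15 of 22 genes, so other targets were not read. The peptide N-glycanase NGLY1 had the lowest value of the degradation list, -0.28. FRAX-597 1 and 2 differed from each other by more than the solvent arrays did in XBP1 and TRIB3.

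**Figure D4:**
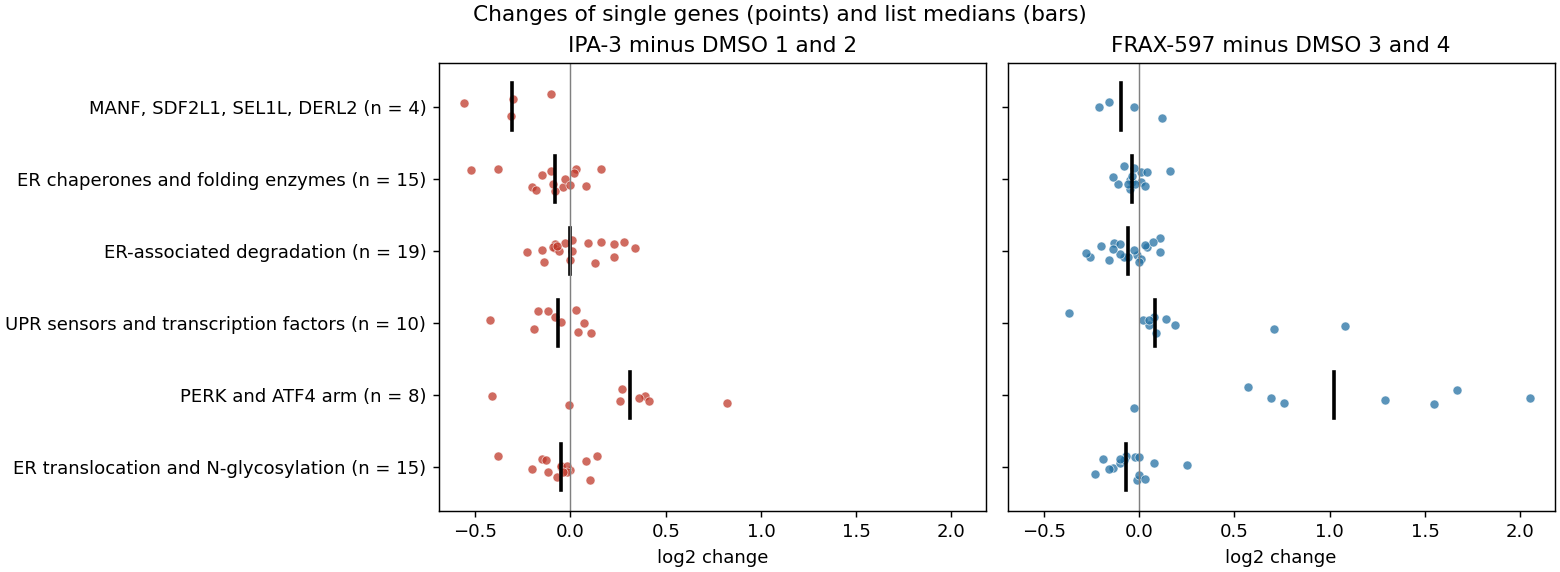
Log2 changes of single genes (points) with list medians (bars) for IPA-3 (left) and FRAX-597 (right), for the 4 genes and the 5 lists. The PERK and ATF4 arm reaches 2.05 with FRAX-597, while chaperone, degradation and translocation genes stay between -0.52 and 0.34 in both comparisons.

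Likeness of pattern was measured by Pearson's r over the 8 arrays after each set was centred on its own mean, against 14883 other genes, and is given as a description of arrays that share treatments and sets. MANF and SDF2L1 were the most alike pair of the 4 (r = 0.87), with 269 other genes closer to MANF than SDF2L1 was. SDF2L1 and DERL2 had r = 0.77, MANF and DERL2 0.64, MANF and SEL1L 0.39, SEL1L and DERL2 0.09, and SDF2L1 and SEL1L -0.03. In this order, 837, 1652, 3914, 6343 and 8550 other genes were closer to the first-named gene of the pair. The genes most like MANF were DPP9 (0.998), RBBP4 (0.987) and GAPVD1 (0.985). Those most like SDF2L1 were METTL9 (0.995), UNG (0.989) and EGR1 (0.980). SEL1L was closest to CISD2 (0.987), ZNF24 (0.985) and BNIP2 (0.984), and DERL2 to CDKAL1 (0.984), NFS1 (0.981) and TXNRD2 (0.981). EGR1, an immediate early transcription factor, had log2 changes of -0.96 with IPA-3 and -0.70 with FRAX-597, larger than those of SDF2L1, and did not pass either (limma adjusted p = 0.256 and 0.241).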

How the data were processed

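Total RNA of 8 THP-1 samples was labelled with biotin by an Affymetrix WT kit for 1-colour arrays, per the labels. The authors deposited log2 expression values for 53617 probes, with values from 1.68 to 14.22 and 0 missing. The log base was inferred from that range. Transcriptome Analysis Console and Affymetrix Expression Console were used, per the submitters' processing notes; the summarisation, the normalization and the array's genome build are not given in the sources used here. Arrays have no read depth, so their number limits the precision.

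The platform annotation named 16098 probes with 1 gene each, 0 with several, and 37519 with none, and all 16098 matched RefSeq gene identifiers. For 779 genes with more than 1 probe the one with the highest mean was kept. limma 3.58.1 in R 4.3.3 (lmFit, eBayes) was fitted to 4 groups and tested on simulated data. Alternatives were pooled controls, each set alone, a replicate block, quantile normalization, median centring, every probe, probe means, a filter on low values, an intensity trend and leaving out each array.

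The 4 genes, the lists (ER chaperones and folding enzymes; ER-associated degradation; UPR sensors and transcription factors; PERK and ATF4 arm; ER translocation and N-glycosylation; cell type markers) and the tests were chosen with earlier results of these data known. Named were the 4 genes, their paralogs and partners, the 2 highest and 2 lowest genes per list, any called gene, and the 3 genes most alike; the text gives some of these.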

Additional observations from a re-analysis of the deposited data

Results flagged for a closer look

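SEL1L lay lower on both IPA-3 arrays than on DMSO 1 and 2 and higher on both FRAX-597 arrays than on DMSO 3 and 4, so that every array of one compound lay opposite to every array of the other. Of all 14884 genes, 2.96% had the same pattern, and 5.91% had opposite directions without overlap in either order. The difference of the 2 log2 changes was 0.22 (SE 0.15, limma adjusted p = 0.916), which did not pass, and adjusted p was from 0.423 to 1 over its 16 alternatives.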

How the results depend on the processing

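None of the 4 genes passed for IPA-3, FRAX-597 or their difference in any alternative run, and MANF kept its direction in all of them. With the 4 DMSO arrays pooled, the log2 changes with IPA-3 were 0.41 for SDF2L1 and 0.13 for SEL1L, that with FRAX-597 was -0.11 for SEL1L, and the differences between compounds were -1.32 for SDF2L1 and -0.24 for SEL1L, all opposite in sign to the within-set values. This construction puts DMSO arrays of both sets together. Without 1 array, DERL2 with FRAX-597 ranged from -0.20 to 0.14, and between the solvent pairs MANF ranged from -0.03 to 0.03 and DERL2 from -0.28 to 0.06.

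Counts of called genes for IPA-3 (5) were 0 with pooled controls in limma (843 at an unadjusted p under 0.05), 96 with the set alone, 72 with the replicate block, 2 after quantile normalization, 0 with every probe (3416 at an unadjusted p under 0.05), 2 above the median level, 8 with an intensity trend, and 0 to 24 without 1 array, 0 without any 1 array of the first set and 24 without either FRAX-597 array (491 to 1381 at an unadjusted p under 0.05). For FRAX-597 (23) they were 5 pooled, 0 with the set alone (606 at an unadjusted p under 0.05), 202 with the block, 6 with every probe, and 2 to 227 without 1 array, 2 without any 1 array of the first set and 227 without FRAX-597 2. For the difference between compounds (2) they were 38 with the block, 1 above the median level, and 0 to 27 without 1 array. The solvent pairs (8918) gave 4211 after quantile normalization (2241 higher), 4514 after median centring (1725 higher), 28597 with every probe and 5720 above the median level, alternatives chosen after seeing the data. There quantile normalization moved MANF to -0.38 and median centring moved MANF to -0.53 and DERL2 to -0.64, all past the threshold. Causes were not tested.

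The labels pair no arrays. Within the second set, the gap between the DMSO arrays and the gap between the FRAX-597 arrays had r = 0.65 across 14884 genes (first set -0.06), and the block pairing DMSO 3 with FRAX-597 1 and DMSO 4 with FRAX-597 2 is a hint from the data only. It left the log2 changes as they were (MANF -0.56 with IPA-3, adjusted p = 0.0635) and called XBP1, ATF4, DDIT3, TRIB3, ASNS and SESN2 with FRAX-597, which is no separate support. On every array the 4 genes lay above the median of all probes, where a filter kept 10170 of the 14884 genes.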

Other observations

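Genes of ER translocation and N-glycosylation differed in direction between the solvent pairs. Of 15 measured, 5 were called higher and 5 lower in DMSO 3 and 4 than in DMSO 1 and 2, where 54.9% of all genes were called higher and 4.98% lower. After quantile normalization 1 of the 15, SEC61A1, was called higher and 5 lower, where 2241 of all genes were called higher and 1970 lower, so the even division depends on the scale of the sets. SEC62 and SEC63, partners of the translocation channel, had log2 differences of -0.99 (limma adjusted p = 0.000616) and -0.91 (limma adjusted p = 0.000584), whereas the channel subunit SEC61A1 had 0.67 (limma adjusted p = 0.00371). SEC62 had a log2 change of 0.14 with IPA-3 and 0.25 with FRAX-597, and SEC63 of -0.12 and -0.01, none of which passed (limma adjusted p from 0.654 to 0.998).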
